A study of Danio rerio with 13 samples.

Results

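Crosslink sites obtained with an antibody against hnRNP A1 were set against those of an IgG control pull-down in zebrafish embryos at the 1000-cell stage, during zygotic genome activation (ZGA). The samples were chosen by their labelled antibody and stage, which gave 7 of the 13 samples of the series: hnRNP A1 at ZGA (n = 4) and IgG at ZGA (n = 3). The 6 samples of the 32-cell stage (preZGA), with 3 of each antibody, were used only where the stages are set side by side. All embryos were wild type, of the AB strain, and all were irradiated with ultraviolet light. The assay was iCLIP, in which the light links proteins to the RNA they touch, the complexes are pulled down, and reverse transcription mostly stops at the crosslink, so that a cDNA's end gives its position.

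hnRNP A1 is an abundant RNA-binding protein of the nucleus that moves between nucleus and cytoplasm. It is best known for its part in the choice of splice sites, and it also acts in the processing of some microRNA precursors. Genome activation is the time at which transcription of the embryo's own genome begins, after a phase run on RNA from the egg. RNA recovered with IgG is what the procedure yields without an antibody against the protein, so a region is read by how far hnRNP A1 exceeds IgG in it.

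Each group was available as 1 sum over its libraries, so replicates cannot be compared and the report holds neither tests nor p-values. Ranges in parentheses are exact 95% intervals, which cover counting error alone. The tables list only crosslink sites that passed the submitters' significance filter. A place where no IgG site is listed may still have had IgG reads, and no fold is given there. How deeply the libraries were sequenced is not known. The labels speak of 3 summed replicates. At ZGA, however, 4 hnRNP A1 samples are labelled, and the name of their sum lists 4 libraries. The hnRNP A1 sum may thus hold more libraries than the IgG sum or as many, which was not settled. A fold below is therefore a ratio of listed cDNAs as they stand, and the text compares places within the same pair of tables.

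At ZGA, hnRNP A1 had 200258 sites with 480927 uniquely mapped cDNAs, against 3709 sites with 20262 cDNAs for IgG. The fold of cDNAs was 23.7 (23.4 to 24.1), and that of sites was 54.0 (52.3 to 55.8). The genome-wide figure was an average of very unlike places. On 17 of 26 chromosomes, the mitochondrial one included, the fold was at least 100, and on chromosomes 1, 4 and 22 and the mitochondrial chromosome it was under 20. These 4 chromosomes held 33.6% of hnRNP A1 cDNAs and 86.4% of IgG cDNAs, and hnRNP A1 exceeded IgG there 9.22-fold (9.08 to 9.36). On the other 22 chromosomes together the fold was 116 (112 to 121), with a range of 37.1 to 581 and a median of 198.

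The order of the chromosomes ran as follows. Chromosome 1 was lowest, with 22671 hnRNP A1 cDNAs against 7657 of IgG, or 2.96-fold (2.88 to 3.04). Chromosome 4 came next, with 96561 against 7607, or 12.7-fold (12.4 to 13.0), followed by the mitochondrial chromosome with 29924 against 1616, or 18.5-fold (17.6 to 19.5), and chromosome 22 with 12296 against 635, or 19.4-fold (17.9 to 21.0). The intervals of the last 2 overlapped, whereas those of chromosomes 1 and 4 stood clear of their neighbours. Chromosome 18 was at the other end, with 11030 hnRNP A1 cDNAs against 19 of IgG, or 581-fold (372 to 965). Chromosomes 9, 15, 5 and 25 followed at 375, 346, 330 and 323, and the small IgG numbers of all 5 leave their order unsettled.

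**Figure D1:**
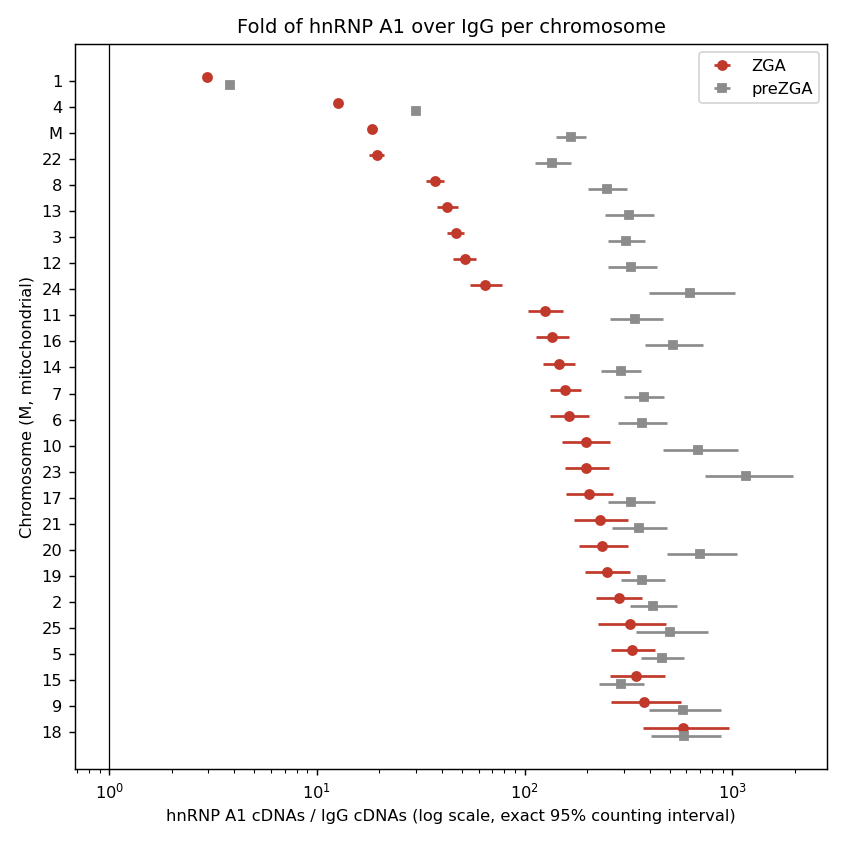
Fold of hnRNP A1 over IgG cDNAs per chromosome on a log axis, with exact 95% intervals, at ZGA and beside it at preZGA. At ZGA chromosomes 1, 4 and 22 and the mitochondrial chromosome lie under 20. At preZGA chromosome 1 lies at 3.83 and chromosome 4 at 29.9, and 24 chromosomes lie at 100 or more.

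On several chromosomes a low fold rested on 1 window of 10 kb. Windows here are 10 kb of 1 strand, in coordinates of the Zv9 assembly. On chromosome 1 a single plus-strand window held 97.5% of the IgG cDNAs, and the rest of the chromosome had a fold of 64.0 (55.5 to 74.2). In the same way the fold moved to 199 from 46.6 on chromosome 3 without its minus-strand window at 1650001, and to 122 from 37.1 on chromosome 8 without its plus-strand window at 40540001. It moved to 257 from 64.8 on chromosome 24, to 129 from 51.4 on chromosome 12 and to 91.1 from 42.4 on chromosome 13. With each chromosome's leading IgG window taken out, a comparison added after seeing the data, 21 of 26 chromosomes stood at 100-fold or more.

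Chromosome 4, chromosome 22 and the mitochondrial chromosome stayed low without their leading window. Chromosome 4 fell to 7.56-fold (7.34 to 7.80) without the minus-strand window at 61290001, since that window has a higher fold than the rest of the chromosome. The mitochondrial chromosome stood at 6.12-fold and chromosome 22 at 25.7-fold. With the leading windows put back, the strands differed as well. On chromosome 1 the fold was 2.08 on the plus strand and 43.3 on the minus strand. On chromosome 22 it was 11.7 on plus and 41.2 on minus. On chromosome 4 it was 8.08 on plus and 14.5 on minus, and on the mitochondrial chromosome 21.4 on plus and 6.10 on minus. Single windows weighed heavily in these values. The leading window held 7465 of 7494 IgG cDNAs on chromosome 1 plus and 1073 of 1315 on the mitochondrial plus strand. On chromosome 4 minus it held 60294 of 79129 hnRNP A1 and 2812 of 5450 IgG cDNAs. Strand folds without these windows are not given, so strand-wide differences are not shown.

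A finer view came from 14065 windows with a site of either antibody. Only hnRNP A1 sites were listed in 13549 of them (96.3%), which together held 64.6% of the hnRNP A1 cDNAs. Sites of both were listed in 391, with 170384 hnRNP A1 against 19953 IgG cDNAs. IgG sites alone were listed in 125, and these were small, with 309 IgG cDNAs in all and at most 7 in one window. An IgG site was the more often listed the more hnRNP A1 cDNAs a window had. The share of windows with one was 0.534% at 2 to 4 hnRNP A1 cDNAs, 9.30% (6.84 to 12.3) at 100 to 199, 23.4% at 200 to 499, 47.7% at 500 to 999 and 71.4% in the 21 windows of 1000 or more. The fold of summed cDNAs showed no such steady change. It lay between 110 and 186 in every class up to 199 cDNAs. Above that it was 46.2 at 200 to 499, 23.3 at 500 to 999 and 8.55 at 1000 or more.

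Windows of at least 100 hnRNP A1 cDNAs were classed by their fold, a choice by hnRNP A1 that leaves out windows where IgG alone is strong. There were 832 of them, with 66.0% of all hnRNP A1 cDNAs and 93.0% of all IgG cDNAs. A window was called well above IgG where no IgG site was listed or where the interval of its fold lay wholly above 20. This held for 734 of the 832 windows, or 88.2%: 678 windows, or 81.5%, with no IgG site, and 56 by their interval. For the 678 the call rests on the lack of a listed IgG site. IgG reads that the significance filter left out may lie in them, so only the 56 were placed above 20 by a fold. In 61 windows, or 7.33%, the interval lay wholly below 20, and in 37 it covered 20. The limit of 20 is below the genome-wide fold of 23.7. With the limit set at the genome-wide fold, 723 of the 832 windows were well above IgG. The fold was under 5 in 31 windows, or 3.73%, and these held 24992 hnRNP A1 against 10932 IgG cDNAs, with 54.0% of the IgG table among them.

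**Figure D2:**
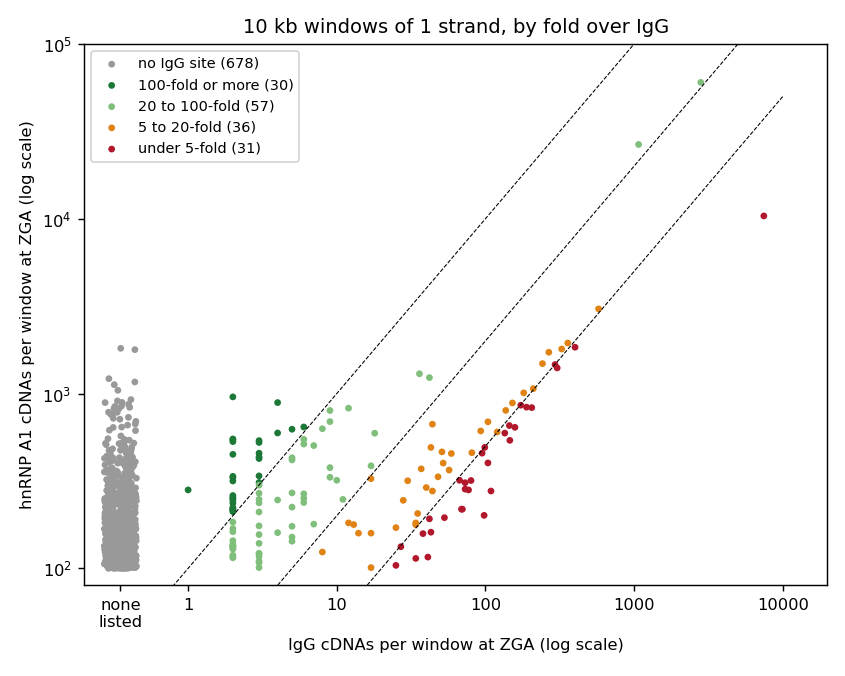
hnRNP A1 cDNAs (vertical) against IgG cDNAs (horizontal) at ZGA in the 832 windows of at least 100 hnRNP A1 cDNAs, both on log axes, coloured by class of fold. Windows with no IgG site listed are drawn in a column at the left edge. Classes are set by the fold, so a climb of IgG with hnRNP A1 among windows of low fold is built in. The chromosome 1 window stands alone at 10381 against 7465 cDNAs.

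The windows well above IgG were spread over the genome. Outside chromosome 4, 722 of 773 windows were well above IgG, or 93.4% (91.4 to 95.05). On chromosomes 9, 15, 17, 18 and 25 this held for all 22, 25, 28, 26 and 21 windows of that size. On chromosome 22 it held for 17 of 25 windows (68.0%) and on the mitochondrial chromosome for 1 of 4. Chromosome 4 divided along its length: up to 30 Mb 7 of 9 windows were well above IgG, and beyond 30 Mb 5 of 50 were, or 10% (3.33 to 21.8). That distal stretch held 40 of the 61 windows whose interval lay below 20, or 65.6% (52.3 to 77.3).

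The 678 windows with no IgG site held 153822 hnRNP A1 cDNAs, 32.0% of the table, on 25 chromosomes. Their binding was broad and shallow: the median window had 162 cDNAs over 96 sites, 1.74 cDNAs per site, and 90% of its cDNAs were spread over 919 nt. The strongest nucleotide of the median window held 3.92% of its cDNAs. Over all 832 windows, most of which are these, the medians were near. They were 178 cDNAs, 91 sites, 1.93 cDNAs per site, 856.5 nt and 4.43% on the strongest nucleotide. The windows mostly stood alone, since 625 of 651 unbroken runs on a strand were 1 window long and 25 were a pair. The longest run, of 3 windows, was on chromosome 18 minus from 37600001 to 37630000, with 856 cDNAs over 369 sites.

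Most of these windows were bound before genome activation too. Of the 678, 636 had at least 100 hnRNP A1 cDNAs at preZGA, beside 717 of all 832 windows. The median ratio of ZGA to preZGA cDNAs was 0.683, beside 0.726 over all windows with a preZGA site. Most of the 832 are these windows, so nearness to the whole set is built in. At preZGA 100 cDNAs were reached in 47 of the 56 windows above 20. This held for 18 of the 37 whose interval covered 20 and 16 of the 61 below. Ratios are of raw cDNAs, and in all hnRNP A1 had 480927 at ZGA and 583691 at preZGA. An IgG site was listed at preZGA in 77 of the 678, with 236 IgG cDNAs in all beside 224627 of hnRNP A1. Of all 832 windows, 159 had one, among them 23 of the 56, 14 of the 37 and 45 of the 61.

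Of all windows with no IgG site, the one with the most hnRNP A1 was chromosome 8 plus at 24580001 to 24590000, with 1815 cDNAs over 200 sites at ZGA and 3002 cDNAs at preZGA. Chromosome 15 plus at 3510001 to 3520000 had 1783 cDNAs over 205 sites at ZGA and 1042 at preZGA, where 4 IgG cDNAs were listed. Both were compact, with 90% of the cDNAs within 373 and 272 nt. Chromosome 15 minus at 5790001 had 1217 cDNAs over 531 sites, chromosome 5 plus at 36190001 had 1165 over 256 and chromosome 22 minus at 38060001 had 1124 over 282. The broadest of the 10 leading windows was chromosome 3 minus at 59290001, with 1044 cDNAs over 762 sites spread through 4353 nt and no nucleotide above 0.670% of them. The remaining 4, on chromosome 12 plus at 35970001, chromosome 12 minus at 34840001 and chromosome 15 minus at 24450001 and 14060001, had 888 to 924 cDNAs. Among all 10, the window on chromosome 15 plus had more cDNAs at ZGA than at preZGA, the one on chromosome 15 minus at 24450001 had 890 cDNAs at each stage, and the other 8 had fewer at ZGA. These cDNAs are not scaled to the stage totals of 480927 at ZGA and 583691 at preZGA. The order of the stages is thus unsettled where the values are close.

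**Figure D3:**
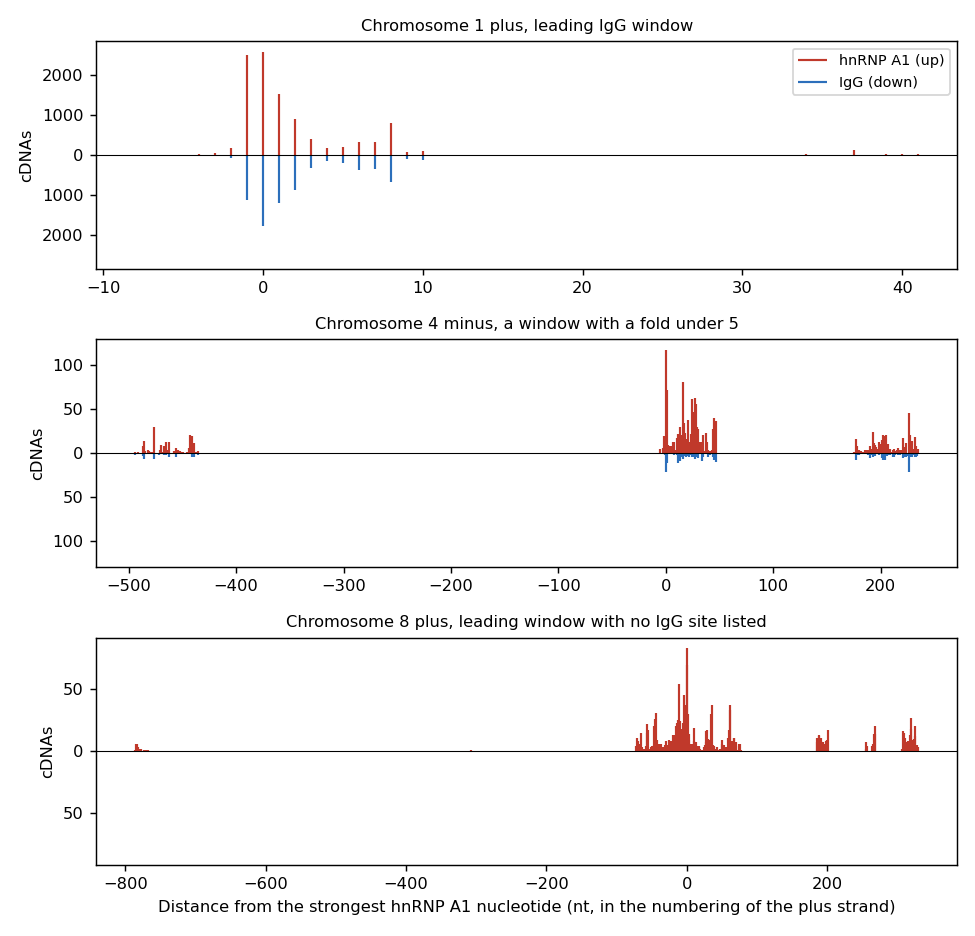
cDNAs per nucleotide of hnRNP A1 (up) and IgG (down) at ZGA along the leading IgG window of chromosome 1, a window of low fold on chromosome 4 minus and the strongest window with no IgG site, on chromosome 8 plus; the horizontal axis is distance in nt from the strongest hnRNP A1 nucleotide. hnRNP A1 and IgG share their peak on chromosome 1, run over the same nucleotides on chromosome 4, and no IgG site is listed on chromosome 8.

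The 61 windows below 20 were chosen by their fold, so their folds are a description. They held 46125 hnRNP A1 cDNAs and 14431 IgG cDNAs, which is 9.59% of the hnRNP A1 table and 71.2% of the IgG table. Their folds ran from 1.39 to 11.4, with a median of 4.98 and quartiles of 4.06 and 6.30, and 48 of the 61 lay between 3 and 7. Without the chromosome 1 window, a comparison added after seeing the data, the other 60 had 35744 against 6966 cDNAs, or 5.13-fold (5.001 to 5.27). A median of 98.6% of their hnRNP A1 cDNAs lay within 15 nt of an IgG site of the same strand. Their binding was concentrated, with a median of 7.44 cDNAs per hnRNP A1 site, 51 sites per window and 251 nt (quartiles 31 and 1250) holding 90% of the cDNAs. This was not particular to them, since the 37 windows whose interval covered 20 had medians of 6.59 cDNAs per site and 187 nt. The 56 windows above 20 had 4.72 cDNAs per site and 571.5 nt, and those with no IgG site 1.74 and 919 nt.

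The stages are set side by side for these windows with a limit: they were chosen on ZGA values, by at least 100 hnRNP A1 cDNAs and by enough IgG to keep the fold low, and a choice on ZGA favours higher values at ZGA. hnRNP A1 cDNAs were more numerous at ZGA than at preZGA in 60 of the 61, beside 202 of all 832 windows chosen by the same minimum, and 5 of the 61 had no hnRNP A1 site listed at preZGA. Of the 61, 16 reached 100 cDNAs at preZGA. The median ratio of ZGA to preZGA was 12.1 over those with a preZGA site, 1.21 in the 56 windows whose interval lay above 20 and 0.683 in those with no IgG site. In the 60 windows without the chromosome 1 one, the preZGA tables held 4103 hnRNP A1 against 682 IgG cDNAs, or 6.02-fold (5.55 to 6.53). How much of the stage difference the choice of windows accounts for was not tested.

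The lowest fold of all was on chromosome 1 plus at 2600001 to 2610000, with 10381 hnRNP A1 against 7465 IgG cDNAs, or 1.39 (1.35 to 1.43). There 20 of 22 IgG nucleotides were also hnRNP A1 nucleotides, the strongest was the same, and IgG was the higher at 6 of them. The median ratio over the shared nucleotides was 1.19. Its strongest nucleotides were 2600144, with 2583 against 1781 cDNAs, 2600145, with 1515 against 1210, and 2600143, with 2501 against 1128.

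Chromosome 24 plus at 5390001 followed at 2.05-fold (1.60 to 2.64), with 201 against 98 cDNAs on 3 hnRNP A1 sites, and 98.5% of the hnRNP A1 cDNAs fell on 1 nucleotide. Next were chromosome 4 minus at 38110001, with 277 against 109 cDNAs (2.54-fold), and at 30550001, with 116 against 41 (2.83-fold). The other 6 of the 10 lowest had folds of 3.11 to 3.70. They were 4 windows of distal chromosome 4, the mitochondrial minus strand at 10001, with 114 against 34 cDNAs (3.35-fold), and chromosome 22 minus at 30780001, with 281 against 77 (3.65-fold).

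The windows with the most IgG cDNAs after the chromosome 1 window were 2 with intervals above 20 and 7 below. Chromosome 4 minus at 61290001 to 61300000 held 60294 hnRNP A1 against 2812 IgG cDNAs, or 21.4-fold (20.6 to 22.3). This interval lay above 20 but below the genome-wide fold of 23.7. The window held 12.5% of all hnRNP A1 cDNAs and 13.9% of all IgG cDNAs. All 381 IgG nucleotides there were among the 1316 hnRNP A1 nucleotides, the strongest was the same for both, at 61299094 with 1577 against 132 cDNAs, and the median ratio over shared nucleotides was 13.0. The mitochondrial plus strand at 1 to 10000 held 26603 against 1073, or 24.8-fold (23.3 to 26.4), an interval that covered the genome-wide fold. Its strongest nucleotides differed, at 2300 for hnRNP A1 (2063 cDNAs) and at 1951 for IgG (100 cDNAs). Counted by sites instead of cDNAs, the fold was 3.45 in the chromosome 4 window and 3.81 in the mitochondrial one, so neither was above 20.

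The 7 windows below 20 had folds of 4.59 to 6.45. On chromosome 4 plus at 40090001 there were 3051 against 577 cDNAs (5.29-fold), all hnRNP A1 and IgG sites lying from 40099851 to 40099899. On chromosome 4 minus at 45690001 there were 1841 against 401 (4.59-fold), with 109 of 119 IgG nucleotides shared, and the windows at 45590001 and 45580001 had 1799 against 326 (5.52-fold) and 1465 against 294 (4.98-fold). Chromosome 3 minus at 1650001 had 1946 against 358 (5.44-fold) and the same strongest nucleotide for both antibodies, at 1652785 with 255 against 37 cDNAs. Chromosome 8 plus at 40540001 had 1402 against 304 (4.61-fold), and the mitochondrial minus strand at 1 had 1723 against 267 (6.45-fold).

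Folds above 20 were found beside 10 or more IgG cDNAs as well. In the 10 windows of highest fold with that much IgG, the interval lay above 20 in 6 and covered 20 in the rest. Among windows with at least 10 IgG cDNAs, the highest fold was on chromosome 6 plus at 2540001, with 825 hnRNP A1 cDNAs on 7 sites against 12 of IgG, also on 7 sites, or 68.8 (39.1 to 134). Chromosome 11 minus at 40610001 had 1298 against 36, or 36.1 (25.9 to 51.7), and only 39 hnRNP A1 cDNAs at preZGA. Chromosome 7 plus at 2550001 had 593 against 18, or 32.9 (20.7 to 56.0). Chromosome 23 plus at 19440001 had 319 against 10, or 31.9 (17.1 to 67.2). Chromosome 4 plus at 55510001 had 1234 against 42, or 29.4 (21.6 to 41.0), with 69.8% of the hnRNP A1 cDNAs on 1 nucleotide. The other 5, the leading chromosome 4 and mitochondrial windows among them, had folds of 19.2 to 24.8, around the genome-wide fold of 23.7. By numbers of sites, the fold of these 10 windows ran from 1 to 16.5, and none was above 20.

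The mitochondrial plus strand was not uniform. Its first 4 kb, in steps of 1 kb, held 3330, 7327, 11047 and 4049 hnRNP A1 cDNAs against 290, 355, 97 and 271 of IgG. The fold was thus 11.5, 20.6, 114 (93.3 to 141) and 14.9, so that the third kilobase stood far above its neighbours. The next step held 330 hnRNP A1 cDNAs against 1 of IgG. Farther along the fold was 19.4 from 6001 to 7000, 6.27 from 8001 to 9000, 5.28 from 10001 to 11000, 6.37 from 12001 to 13000 and 8.74 from 16001 to 17000. On the minus strand the leading step, from 6001 to 7000, had 1514 against 243 cDNAs (6.23-fold). No mitochondrial gene is assigned to these steps, since an annotation of Zv9 was not used here.

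Site strength, the number of cDNAs on 1 nucleotide, told hnRNP A1 and IgG apart unevenly. Among sites of 1 cDNA there were 130426 hnRNP A1 against 1762 IgG sites, or 74.0-fold. The fold was 50.5 at 2 cDNAs, 35.1 at 3 to 4, 20.01 at 5 to 9, 15.6 at 10 to 19 and 16.0 at 20 to 49. At 50 to 99 there were 419 against 12 sites, or 34.9-fold (19.8 to 68.1), and at 100 or more 219 against 16, or 13.7-fold (8.24 to 24.4). These intervals overlapped each other and that of 20 to 49 cDNAs, 12.6 to 20.6, so the order of these classes is unsettled. Without the 10 windows of most IgG, the fold still went down from 99.3 at 1 cDNA to 25.1 at 10 to 19. It then stood at 26.9 (17.4 to 43.7) on 21 IgG sites and at 48.3 (16.2 to 237) on 3 IgG sites in the next 2 classes. In those windows' absence 47 hnRNP A1 sites of 100 or more cDNAs remained and no IgG site of that strength.

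Strong hnRNP A1 sites were mostly near an IgG site. The share within 15 nt of one was 1.30% for sites of 1 cDNA, 14.8% at 5 to 9, 39.6% at 10 to 19, 62.2% at 20 to 49, 78.3% at 50 to 99 and 87.7% (82.6 to 91.7) at 100 or more. Of the last, 74.9% lay on the very nucleotide of an IgG site. Without the 10 windows of most IgG the share was 10.6% at 5 to 9 cDNAs, 28.9% at 10 to 19 and 55.9% at 20 to 49, all lower than with them, and 80% at 50 to 99 and 93.6% at 100 or more, where 47 sites were left. The part of the significance filter in these shares was not tested.

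**Figure D4:**
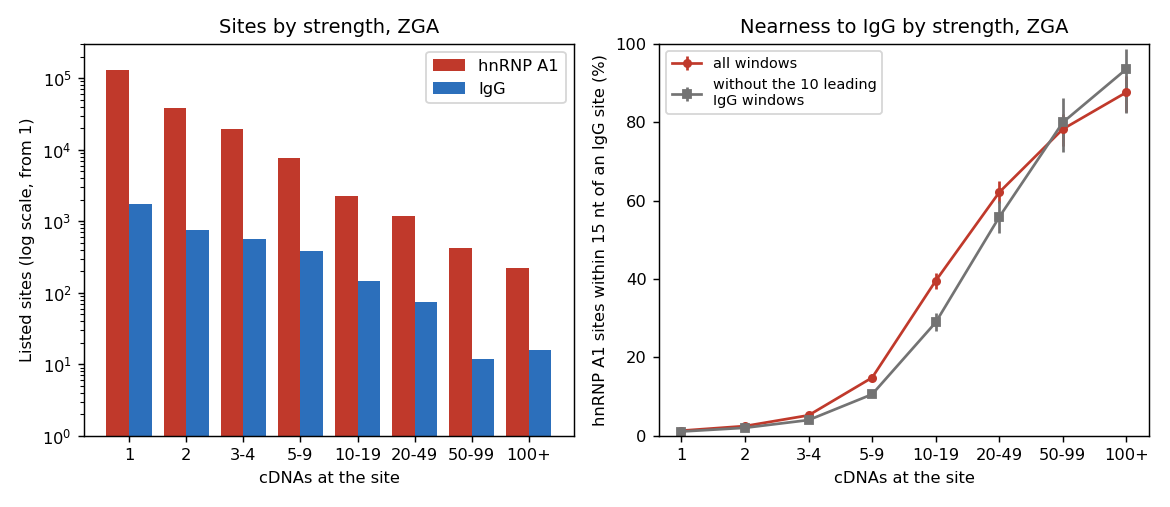
Number of hnRNP A1 and IgG sites at ZGA by cDNAs per site, on a log axis, and the percent of hnRNP A1 sites within 15 nt of an IgG site in each class, with exact 95% intervals. The excess over IgG is 74.0-fold at 1 cDNA and 13.7-fold at 100 or more, while the share near IgG goes up to 87.7%.

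By cDNAs, most of the hnRNP A1 signal lay clear of IgG. Sites more than 15 nt from any IgG site numbered 193309 (96.5%) and held 346680 cDNAs (72.1%), with a mean of 1.79 per site. The share of cDNAs clear of IgG was 21.3% on chromosome 4, 33.6% on the mitochondrial chromosome, 48.1% on chromosome 1 and 74.8% on chromosome 22, and from 81.1% to 99.2% on each other chromosome, with chromosome 9 highest. Of the clear sites, 118 had 50 or more cDNAs, of which 54 lay in the chromosome 4 window at 61290001 and 33 on the mitochondrial chromosome. The strongest were mitochondrial plus 2891 with 589 cDNAs, chromosome 4 minus 61299041 with 421, and mitochondrial plus 1243, 2217 and 2694 with 371, 309 and 281. At preZGA hnRNP A1 had 575 cDNAs at the first of these, 44 at the chromosome 4 nucleotide and 441 at mitochondrial 1243, and no site was listed at the last 2.

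Where the 2 antibodies met on a nucleotide, hnRNP A1 usually had more cDNAs, but by less than over the genome. A shared nucleotide needs a listed IgG site, which favours low ratios. Of the 3021 shared nucleotides, hnRNP A1 had more cDNAs at 2617 (86.6%), the same number at 292 and fewer at 112 (3.71%). Their summed cDNAs gave a fold of 5.21, against the genome-wide fold of 23.7. The median ratio was 4.0, with quartiles of 2 and 8.25. It was 4.0 on chromosome 4 beyond 30 Mb too, over 1704 nucleotides, and 3.5 over the 719 nucleotides outside chromosomes 1, 4 and 22 and the mitochondrial chromosome. Only 325 IgG sites (8.76%), with 476 cDNAs and at most 6 on one nucleotide, lay more than 15 nt from every hnRNP A1 site.

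Sites joined into clusters when at most 15 nt apart, and a cluster needed at least 2 sites. Of 26276 hnRNP A1 clusters, 373 had an IgG site inside, or 1.42% (1.28 to 1.57), and these held 29.8% of hnRNP A1 cDNAs. They were wider and deeper, with medians of 24 nt, 14 sites and 87 cDNAs, against 14 nt, 4 sites and 6 cDNAs in clusters without an IgG site. The share with an IgG site was 0.0688% in clusters of 2 to 4 cDNAs, 7.42% at 50 to 99 and 36.4% (32.1 to 40.9) in the 486 clusters of 100 or more. The strongest clusters without one were chromosome 4 minus 61295511 to 61295545 with 1532 cDNAs, chromosome 8 plus 24583715 to 24583864 with 1365, chromosome 15 plus 3515396 to 3515568 with 1341 and mitochondrial plus 2402 to 2451 with 1269. The 2 from chromosomes 8 and 15 made up most of the cDNAs of the 2 leading windows with no IgG site.

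The excess over IgG was smaller at ZGA than at preZGA on most chromosomes. The fold of cDNAs was 23.7 at ZGA and 60.8 at preZGA over the genome. The ZGA fold was the lower on 25 of 26 chromosomes, the exception being chromosome 15, with 346 (257 to 476) at ZGA and 292 (229 to 376) at preZGA. The intervals of the stages overlapped on chromosomes 2, 5, 9, 15, 17, 18, 19, 21 and 25, so the order of the stages is unsettled there. As a ratio, the gap was widest on chromosome 24, with 64.8 at ZGA and 623 at preZGA, and on the mitochondrial chromosome, with 18.5 at ZGA and 167 at preZGA. Chromosome 13, with 42.4 at ZGA and 317 at preZGA, and chromosome 22, with 19.4 at ZGA and 136 at preZGA, came next. On chromosome 24 the plus-strand window at 5390001 held 98 of the 130 IgG cDNAs at ZGA and no site of either antibody at preZGA. Without it the ZGA fold was 257 (182 to 376), so the gap there rested largely on this window. Without their leading IgG windows the ZGA folds were 91.1 on chromosome 13, 25.7 on chromosome 22 and 6.12 on the mitochondrial chromosome. The gap was small on chromosome 18, with 581 at ZGA and 588 at preZGA. At ZGA 17 chromosomes stood at 100-fold or more, and at preZGA 24 did. Each stage has its own hnRNP A1 and IgG tables of unknown depth, so stage and depth cannot be told apart in these folds.

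**Figure D5:**
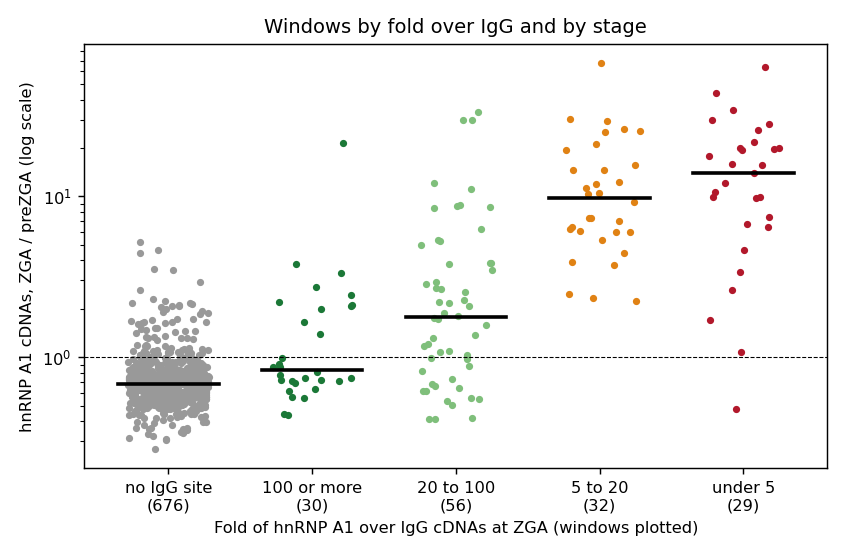
Ratio of hnRNP A1 cDNAs at ZGA to those at preZGA in windows of at least 100 hnRNP A1 cDNAs, on a log axis, grouped by the class of fold over IgG at ZGA; points are windows with an hnRNP A1 site at preZGA and the bar is the median. Windows with no IgG site centre on 0.683, and those with a fold under 5 on 14.1; all windows were chosen by their ZGA values.

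Multi-mapping reads, which fit several places and were shared among them as fractions of a cDNA, gave a fold of 18.8, with 67522 hnRNP A1 against 3584 IgG cDNAs. Fractions allow no exact interval. Of 68 multi-mapping windows with at least 100 hnRNP A1 cDNAs, 6 had no IgG site, 25 had a fold of at least 100, 25 of 20 to 100, 5 of 5 to 20 and 7 under 5. Chromosome 4 minus at 61290001 had 3931 against 371.2 cDNAs (10.6-fold) and chromosome 1 plus at 3370001 had 3736 against 363.3 (10.3-fold), and the strongest nucleotide held 430.5 against 42 cDNAs in both. The other 3 leading windows stood higher, namely chromosome 20 plus at 55780001 with 3303 against 45.6 (72.4-fold), chromosome 4 plus at 43980001 with 1537 against 9.17 (168-fold) and chromosome 4 minus at 43920001 with 1478 against 12.4 (119-fold). Chromosome 9 was lowest of all with multi mapping, at 2.65-fold, while with unique mapping it stood at 375. One window accounted for most of its IgG: chromosome 9 plus at 4230001 had 861.7 hnRNP A1 against 934.3 IgG cDNAs, or 0.922-fold, on 15 against 14 sites, and no uniquely mapped site.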

How the data were processed

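Per the labels, the authors summed a group's replicates and deposited its significant sites, each as a signed number in which the sign is the strand and the size is the cDNA count, a unit other than a plain count. Unique-mapping tables hold whole cDNAs and multi-mapping tables fractions. The names of the deposited tables state Ensembl release 72, 100 permutations, a 15 nt neighbourhood and a false discovery rate of 0.01. CASAVA 1.4 and the build Zv9 stand in the submitters' processing notes, and no aligner was named (not given in the sources used here). The 26 files held 8 distinct tables, since all replicates in a group carry identical copies, which were counted once.

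Listed cDNAs and sites were summed per chromosome, strand, 10 kb window and nucleotide. Folds have exact conditional binomial intervals and shares exact (Clopper-Pearson) ones, at 95%; the code was tested on simulated data. Named windows were, at ZGA, the 10 with the most hnRNP A1 cDNAs among all windows and the 10 among those with no IgG site. Also named were the 10 with the most IgG, the 10 lowest folds (at least 100 hnRNP A1 cDNAs) and the 10 highest (at least 10 IgG cDNAs). The 5 leading multi-mapping windows of each antibody and the 5 strongest nucleotides were named too. Other windows were named after their values were seen, among them the longest run. The comparison, the windows and the split of chromosome 4 at 30 Mb were chosen with earlier results of these data known.

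Alternatives changed the window size, minimum cDNAs, fold limit, tolerance, merge distance and mapping. A Zv9 genome or annotation was not used here, so windows carry no gene names and no sequences are shown. Tools were scipy 1.17.1, pandas 2.3.3, numpy 2.4.6 and matplotlib 3.10.9 under Python 3.11.15.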

Additional observations from a re-analysis of the deposited data

How the results depend on the processing

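The values depended on what was counted. The overall fold of hnRNP A1 over IgG cDNAs, 23.7, became 18.9 with sites of at least 2 cDNAs, 13.8 with at least 5, 23.0 with multi mapping added, 54.0 with numbers of sites and 58.0 without the 10 windows with the most IgG cDNAs. The windows well above IgG, 734 of 832 (88.2%), became 3005 of 3217 (93.4%) at a minimum of 20 hnRNP A1 cDNAs and 62 of 86 (72.1%) at 500. A higher minimum thus lowered both the number of windows classed and the share well above IgG. The fall in share is partly built in, since a window with no IgG site listed was called well above IgG at any minimum. An IgG site was listed in only 3.76% of windows of 20 to 49 hnRNP A1 cDNAs. Under the other alternatives run, the windows well above IgG numbered from 612 of 740 with windows of 1 kb to 819 of 903 with windows of 100 kb. Under these others their share ran from 82.7% at 1 kb to 92.2% with a fold limit of 10. The share of hnRNP A1 sites on an IgG site, 1.51%, became 2.32% within 1 nt, 3.47% within 15 nt, 3.97% within 50 nt and 0.939% without those 10 windows. The share of clusters with an IgG site, 1.42%, became 1.16% with a merge distance of 3 nt and 1.85% with IgG sites within 100 nt. The multi-mapping fold of 18.8 became 23.2 with sites of at least 1 cDNA and 37.1 without the 10 windows. The ZGA fold over the preZGA fold, 0.391, became 0.283 with numbers of sites, 0.179 without the 10 windows of each stage and 0.568 with sites of at least 5 cDNAs. The number of chromosomes at 100-fold or more, 17, ranged from 12 to 21. By numbers of sites the fold was 78.1 on chromosome 1, 5.16 on chromosome 4 and 3.20 on the mitochondrial chromosome, against 2.96, 12.7 and 18.5 by cDNAs. Of 31 folds of single chromosomes and windows, 29 lay outside the interval of the cDNA fold when sites were counted. Apart from the choices named, the causes were not tested.

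No paired analysis was possible because the replicates were summed in the deposited tables, and no replicate could be left out for the same reason. The number of listed IgG cDNAs limits the high folds: chromosome 18 rests on 19 of them. Totals of listed sites are not library depths, and the lack of a listed IgG site is not a lack of IgG reads.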

Other observations

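Multi-mapping windows with no IgG site listed were led by chromosome 2 minus at 44440001 with 325.0 hnRNP A1 cDNAs, chromosome 13 plus at 50760001 with 163.0, chromosome 9 minus at 53710001 with 160.0, chromosome 20 minus at 29510001 with 149.4 and chromosome 19 plus at 49360001 with 127.6. A multi-mapping hnRNP A1 site was listed in 46.0% (42.6 to 49.5) of all 832 uniquely mapped windows and in 48.5% (44.7 to 52.4) of those with no IgG site, a share near that of the whole set. It was 53.3% at a fold of 100 or more, 35.1% at 20 to 100, 30.6% at 5 to 20 and 22.6% (9.59 to 41.1) under 5. On chromosome 4 plus, the windows at 41900001 and 41890001 had 895.2 against 185.6 and 509.5 against 80.2 multi-mapping cDNAs, or 4.82-fold and 6.36-fold. In the chromosome 9 plus window at 4230001, IgG also exceeded hnRNP A1 at preZGA, where hnRNP A1 had 279.4 and IgG 679.2 multi-mapping cDNAs. In the third kilobase of the mitochondrial plus strand IgG had 97 cDNAs at ZGA and 117 at preZGA, whereas in the next it had 271 at ZGA and no listed site at preZGA.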
